A study of Mus musculus with 4 samples.

Results

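Heat shock proteins are chaperones, which hold, fold or disaggregate other proteins, and many of them are made in larger amounts when cells meet heat or another stress that unfolds proteins. The stress-induced part is switched on by the transcription factor HSF1, which binds inverted repeats of the short sequence GAA, called heat shock elements, near the start of its target genes. Dividing cells also need a constant supply: Hsp70 and Hsp90 with their co-chaperones, the ring-shaped cytosolic chaperonin CCT (also called TRiC), which folds actin and tubulin, and the chaperones inside mitochondria.

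The set has 33 genes of the 55401 in the deposited count table, chosen by symbol for their function. They were sorted by role into 7 genes for HSF1 and its strongly inducible targets, 7 of the Hsp70 system, 7 for Hsp90 and its co-chaperones, the 8 CCT subunit genes and 4 mitochondrial chaperone genes. Symbols were matched to the table through GENCODE M21, and all 33 were found and passed the filter on low counts. RNA came from R1 mouse embryonic stem cells in 2 groups of 2 libraries: cells labelled Usp28 KO (knockout) and wild-type control cells. Usp28 encodes a deubiquitinase, an enzyme that takes ubiquitin off other proteins. Both groups were grown on 0.2% gelatin in N2B27 medium with LIF at 10 ng/ml, the MEK inhibitor PD0325901 at 1 μM and the GSK3 inhibitor CHIR99021 at 3 μM. The labels give neither the way the knockout was made nor the number of clones behind it. They also leave unsaid if replicates were separate cultures; each p-value is therefore set by variation among these libraries alone, and that variation may be technical. In such bulk RNA, fewer cells of a kind and less RNA per cell cannot be told apart.

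Usp28 KO libraries held 17996611 and 18709558 counts, and control libraries 19533608 and 16595196. Usp28 itself had 3392 and 3319 counts in Usp28 KO libraries, against 3690 and 3120 in control libraries, so the gene-level count does not check the label and every difference below is between libraries as labelled. Stem cell markers were abundant in all libraries: Pou5f1, Sox2, Nanog, Esrrb, Zfp42, Klf4 and Dppa5a summed to 4002 and 4069 CPM (counts per 1000000 of the scaled library) in Usp28 KO, against 4173 and 4141 CPM in control libraries. The 7 fibroblast markers summed to 5.24 and 8.16 CPM in Usp28 KO, against 3.63 and 5.11 CPM in control libraries. Most of this was Pdgfrb, at 4.23 and 7.09 CPM in Usp28 KO, against 3.07 and 4.04 CPM in control libraries. Thy1 and Col1a1 had some counts in every library, and Lum and Dcn had 0 counts in every library. The 8 germ layer and endoderm markers summed to 56.3 and 69.3 CPM in Usp28 KO, against 59.0 and 63.6 CPM in control libraries. The second replicates of the groups deviated with transcript GC content, in opposite directions. For each gene, log2 CPM in a library was compared with its average in the remaining libraries. Across genes, the rank correlation of this difference with GC content was 0.0444 and 0.372 in Usp28 KO replicates 1 and 2. It was 0.0127 and -0.382 in control replicates 1 and 2. Each second replicate is part of the average used for the other, so 0.372 and -0.382 are not independent. The cause was not tested. Values fitted with GC-content offsets are given below for a selection of the named genes. A gene given without such a value may also have moved.

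Promoter sequences are shown first, for a selection of the members with a match to the element that HSF1 is known to bind. RefSeq promoters (GRCm38.p6, 250 bases before to 50 after a start site) were listed for 26 of the 33 genes, 34 promoters in all. The 8-base core GAANNTTC, which reads the same on both strands, was found in the promoters of 12 of these 26 genes (46.2%), against 9.04% of the 27025 genes with a listed promoter. A longer match of 3 alternating GAA and TTC units, each a pair of bases apart and searched on both strands, was found for 5 of 26 genes (19.2%), against 0.659% of all genes. A 3-unit match contains the core, so both counts hold these 5 genes. Both counts also take Hspd1 and Hspe1 as separate genes, although their match is the same stretch of DNA. The core count likewise holds both Hspa1a and Hspa1b, whose sequence around the match is identical. By role, 5 of 6 listed HSF1 and inducible genes held the core, as did 2 of 5 Hsp70 genes, 2 of 5 Hsp90 genes, 2 of 3 mitochondrial genes and 1 of 7 CCT genes. The 3-unit match was held by 1 of 6, 1 of 5, 1 of 5, 2 of 3 and 0 of 7 genes, in the same order. These are letter matches only, and no match says only that these letters are not in this window. In the lines below, capitals mark the match, each sequence runs 5′ to 3′ on the gene's own strand, and positions count from the start site as 0. Windows are 80 bases long and outside annotated exons, or 28 bases long where the longer one would overlap an exon. All 28 bases of the Hspd1, Hspe1 and Dnajb6 windows lie in annotated exons, so these matches are in sequence upstream of one RefSeq start and within an exon of some annotated transcript.
Hspa1a, chr17:34972211-34972290, minus strand, match at -104: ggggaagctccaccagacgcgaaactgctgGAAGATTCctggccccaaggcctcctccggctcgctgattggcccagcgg
Hspa1b, chr17:34959293-34959372, minus strand, match at -104: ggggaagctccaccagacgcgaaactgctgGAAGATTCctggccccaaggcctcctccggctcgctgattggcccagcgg
Hspb1, chr5:135887772-135887851, plus strand, matches at -117 and -97: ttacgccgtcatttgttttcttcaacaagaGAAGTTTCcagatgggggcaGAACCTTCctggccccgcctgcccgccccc
Hspd1, chr1:55088053-55088080, minus strand, matches at -144 and -139: ggccTTCCGGAAGGTTCTAGAAcggacc
Hspe1, chr1:55088055-55088082, plus strand, matches at -89 and -84: tccgTTCTAGAACCTTCCGGAAggcccc
Dnajb6, chr5:29735843-29735870, plus strand, match at -46: cagctccgaGAATCTTCCGGAAcgctag
Hspa1a and Hspa1b are shown because their windows are identical over all 80 bases. Hspd1 and Hspe1 are shown because they are transcribed away from each other: their windows cover 26 shared positions, so that the same element is read on opposite strands. The Hspd1 positions count from the RefSeq start at 55087932; the promoter of its other RefSeq start, at 55088243, held no match. Hspb1 has 2 separate cores, and Dnajb6 has a 3-unit match, which lies at -127 from a second annotated start. Bag3, Cct2, Chordc1, Dnaja1, Fkbp4 and Hsph1 also held a match and are not printed. Among these, Chordc1 and Hsph1 held a 3-unit match.

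**Figure D1:**
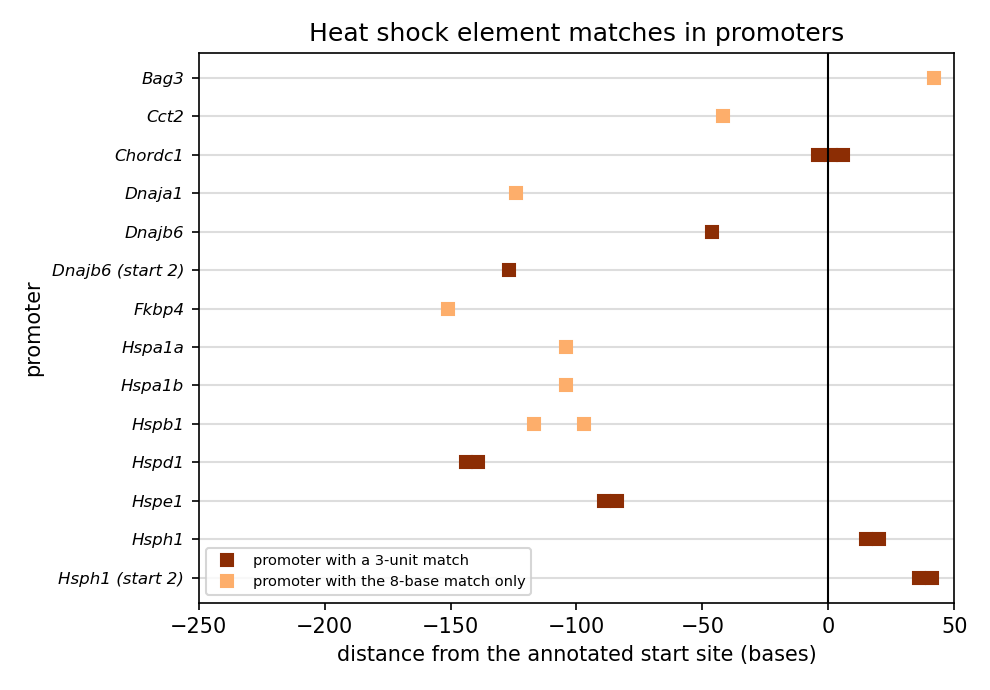
Position of heat shock element matches (squares) in the promoters that hold one, in bases from the annotated start site (0), with 1 row per start site; dark squares are in promoters with a 3-unit match. Matches lie between -151 and 42. Those of Bag3 and Hsph1 lie after the start site, and those of Chordc1 begin at -4, 1 and 6.

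No gene of the set passed the test between Usp28 KO and control. With edgeR's quasi-likelihood test and Benjamini-Hochberg adjustment over 15341 genes, 0 of 33 passed an adjusted p of 0.05 in either direction, and 0% of all tested genes did. The lowest adjusted p in the set was 0.200, for Hspa1a. At an unadjusted p under 0.05, 2 of the 33 were higher (Hspa1a and Hspa1b) and 0 lower, against 6.86% of tested genes higher and 4.34% lower. Hspa1a passed the low-count filter through its Usp28 KO libraries alone. DESeq2 called 0 of the set, with no adjusted p for Hspa1a, and 1.08% of all genes to which it gave one; limma-voom called 0. The median log2 fold change (Usp28 KO over control) of the 33 was -0.054, against -0.0040 over all tested genes, and -0.057 against -0.035 with GC-content offsets. Of the 33, 11 had a positive and 22 a negative log2 fold change. With library totals in place of TMM scaling 18 were positive and 15 negative, under a scaling that moves the median of all genes to 0.0572 and that of the set to 0.0088.

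The edgeR fit also bounds how large a difference between the groups could be, judged by variation among these libraries alone, which may be technical. Of the 33 genes, 30 averaged at least 30 CPM, and for each of these 30 the 95% interval of the log2 fold change lay inside -1 to 1, that is, within a 2-fold difference either way; among all tested genes at that level this held for 97.1%. Over the whole set it held for 31 of 33 genes, against 67.3% of all tested genes. Across the 30 genes, the lowest lower bound was 0.557-fold, for the small heat shock protein gene Hspb1, and the highest upper bound was 1.55-fold, for the CCT subunit gene Cct7. These intervals come from approximate standard errors derived from the edgeR test statistic and are not adjusted for the number of genes. They are from the fit without GC-content offsets, which moved the Hspb1 log2 fold change from -0.29 to -0.52. Intervals with the offsets are not given here. The median absolute log2 difference between replicates was 0.179 in Usp28 KO and 0.151 in control libraries, beside a median absolute log2 fold change of 0.110 between the groups. Over all tested genes these were 0.235, 0.224 and 0.211. Replicate differences are between single libraries, and fold changes are between groups of 2, which average out part of the variation. A fold change below the replicate difference therefore does not show that the groups are closer than replicates. For 6 genes both Usp28 KO libraries were above both control libraries and for 9 they were below, against a background of 21.4% and 20.4% of tested genes, and 18 overlapped. Together the 33 genes took 2.44% and 2.3% of all counts in Usp28 KO, against 2.49% and 2.35% in control libraries.

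**Figure D2:**
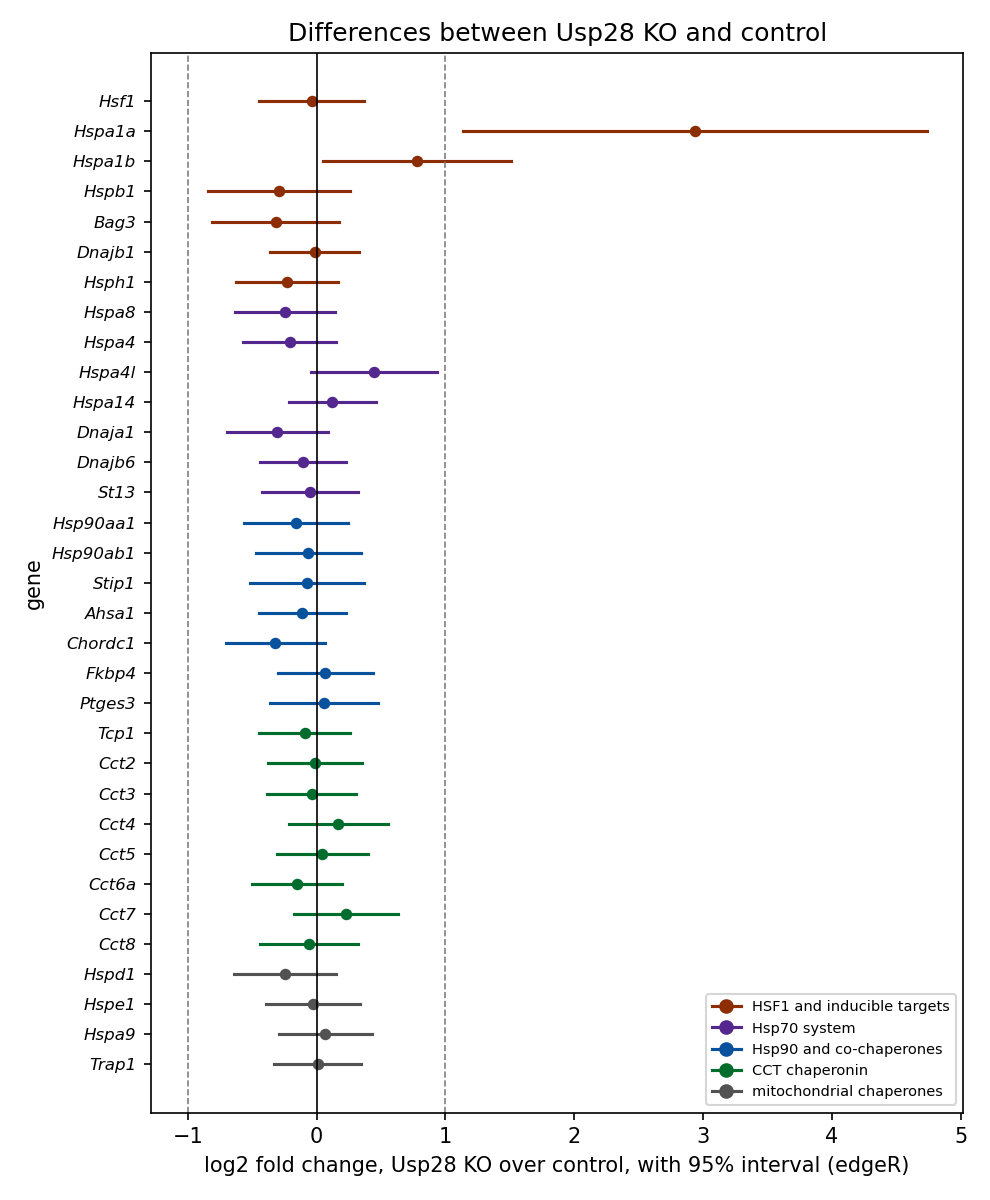
Log2 fold change of each gene, Usp28 KO over control (points), with its approximate 95% interval derived from the edgeR test (bars), coloured by role. Dashed lines mark a 2-fold difference. Only the Hspa1a interval lies wholly beyond a dashed line, from 1.14 to 4.74, on few reads (21 and 22 counts in Usp28 KO, against 0 and 5 in control). Hspa1a passed the low-count filter through its Usp28 KO libraries alone.

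**Figure D3:**
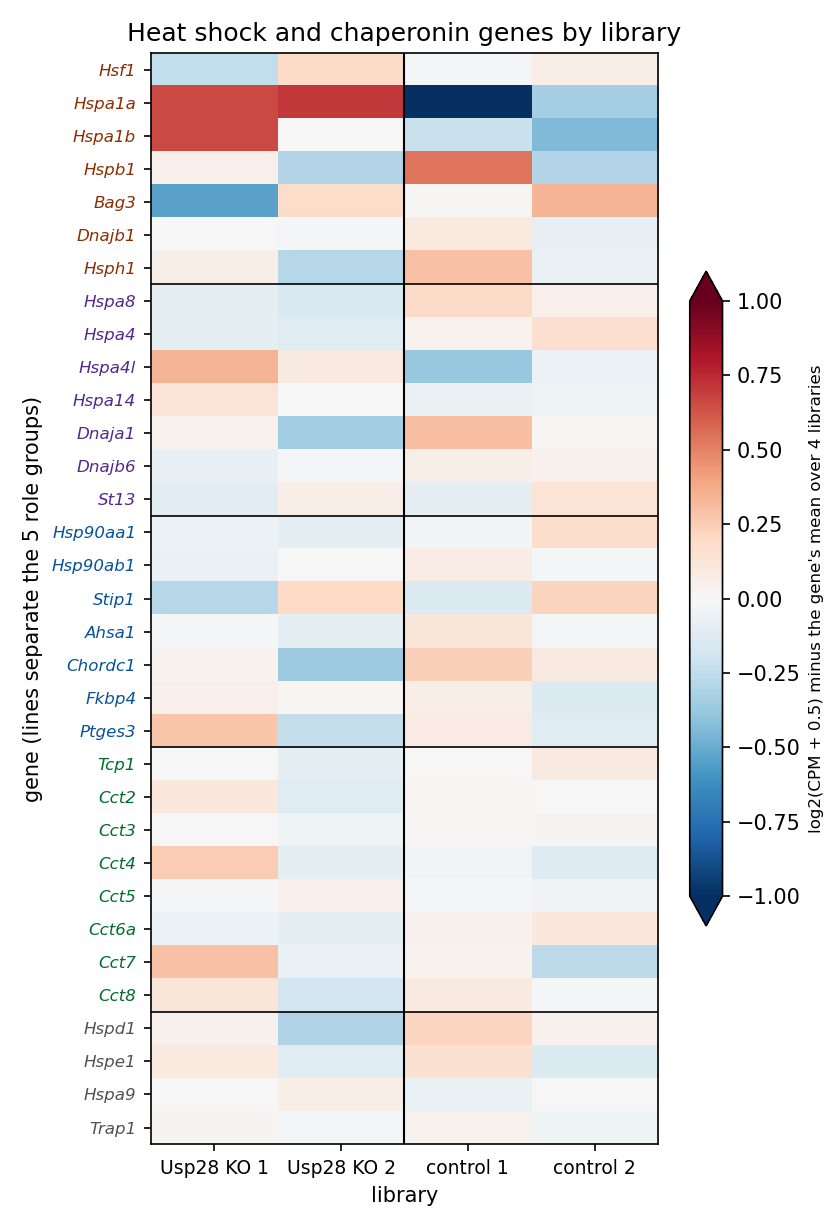
Log2(CPM + 0.5) of each gene in each library minus the gene's mean over the 4 libraries, with Usp28 KO left of control and lines between role groups; the colour scale ends at -1 and 1, so the control replicate 1 cell of Hspa1a is beyond its end. In 9 of the 33 rows the difference between group means is larger than both differences between replicates, as in 4563 of the 15341 tested genes.

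Hsf1, the master regulator of the heat shock response (chromosome 15, 76477422 to 76501913, mm10), was expressed at 43.6 and 59.1 CPM in Usp28 KO, against 51.1 and 54.3 CPM in control libraries. Both control values lie between the 2 Usp28 KO values. Its log2 fold change was -0.038 ± 0.19 (SE), with a 95% interval from -0.44 to 0.37 (edgeR, adjusted p = 0.968), and it was -0.14 with GC-content offsets.

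The inducible Hsp70 genes Hspa1a and Hspa1b had the largest log2 fold changes of the set, and both were scarce. They lie side by side on chromosome 17 (Hspa1b 34956436 to 34959238, Hspa1a 34969190 to 34972156, mm10), with 9951 bases between them, and encode the classic heat-induced Hsp70. Hspa1a had 21 and 22 raw counts in Usp28 KO, against 0 and 5 in control libraries. Hspa1b had 117 and 71 raw counts in Usp28 KO, against 62 and 42 in control libraries. In both genes the groups did not overlap. Hspa1a passed the low-count filter through its Usp28 KO libraries alone, so at its control level it would not have been tested. The stricter filter of 50 counts in 2 libraries left Hspa1a out. Fitted log2 fold changes were 2.94 ± 0.83 for Hspa1a (edgeR, adjusted p = 0.200) and 0.78 ± 0.34 for Hspa1b (edgeR, adjusted p = 0.411). With GC-content offsets they were 2.72 and 0.59. Leaving out a library moved the Hspa1a value between 1.84 and 7.45. Hspa1a was called when control replicate 2 was left out, which leaves a single control library at 0 counts (log2 fold change 7.45, adjusted p = 0.00952), in a fit that called 1.01% of all genes. It was also called with no filter on low counts (log2 fold change 2.93, adjusted p = 0.0112), where 1.19% of all genes were.

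Because their transcripts match at 99.2% identity over 2201 bases, reads of the pair cannot be assigned to 1 gene with confidence, and how the deposited counting treated such reads is not given in the sources used here. Summed, a step chosen after seeing the data, the pair had 138 and 93 counts in Usp28 KO, against 62 and 47 in control libraries. This was 6.17 ± 1.71 CPM in Usp28 KO and 3.07 ± 0.148 CPM in control libraries (SD, n = 2 each). The groups did not overlap, and the summed log2 fold change was 1.00 ± 0.31 (edgeR, adjusted p = 0.245). It was 0.69 when Usp28 KO replicate 1 was left out (adjusted p = 0.670) and 1.26 when Usp28 KO replicate 2 was (adjusted p = 0.0520), the lowest and highest of the 4 such fits. Hspa1b gave 84.8% and 76.3% of the summed counts in Usp28 KO, against 100% and 89.4% in control libraries. Part of Hspa1a, 564 exon bases, is also annotated to Gm20481 on the opposite strand.

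**Figure D4:**
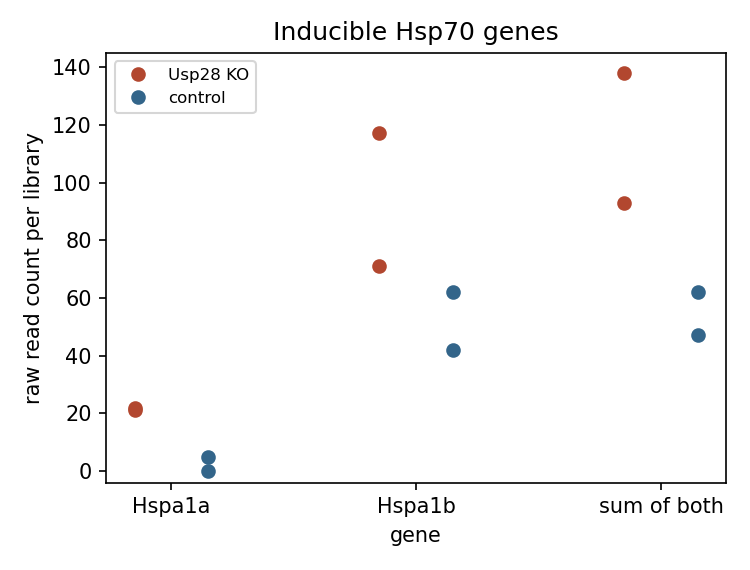
Raw read counts per library (points) of Hspa1a, Hspa1b and their sum, Usp28 KO left of control. For each, both Usp28 KO libraries lie above both control libraries, with 138 and 93 against 62 and 47 for the sum.

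In the other 4 inducible genes the groups overlapped. Hspb1, which encodes the small heat shock protein Hsp27 (named Hsp25 in mice), had 199 and 157 CPM in Usp28 KO, against 279 and 157 CPM in control libraries. Its control replicates differed more from each other than the groups did (log2 fold change -0.29 ± 0.25, adjusted p = 0.716). Without control replicate 1 the sign turned, to 0.177, and with GC-content offsets the value was -0.52. Bag3, a co-chaperone that links Hsp70 to selective autophagy, had 48.7 and 80.4 CPM in Usp28 KO, against 71.5 and 89.5 CPM in control libraries. Its groups overlapped, and its log2 fold change was -0.32 ± 0.23 (edgeR, adjusted p = 0.657), or -0.50 with GC-content offsets. Dnajb1, the inducible J protein that starts the Hsp70 cycle, averaged 92.4 ± 0.835 CPM in Usp28 KO and 93.4 ± 8.37 CPM in control libraries (SD, n = 2 each). For Hsph1, the Hsp110 nucleotide exchange factor of Hsp70, the log2 fold change was -0.23 ± 0.18, again with overlapping groups.

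In the Hsp70 system, the log2 fold changes ran from -0.31 to 0.45, with a median of -0.11 over 7 genes. Hspa8 (Hsc70), the constitutive cytosolic Hsp70 and one of the most abundant chaperone transcripts here, had 2217 and 2129 CPM in Usp28 KO, against 2704 and 2443 CPM in control libraries. Both Usp28 KO libraries were below both control libraries, by a log2 fold change of -0.24 ± 0.18 that did not pass the test (edgeR, adjusted p = 0.667). Per length, Hspa8 stood at 1785 and 1685 TPM (transcripts per 1000000, which corrects for length) in Usp28 KO, against 2125 and 1816 TPM in control libraries. It exceeded the summed TPM of Hspa1a and Hspa1b by 197 and 283 times in Usp28 KO, against 555 and 540 times in control libraries, so the constitutive gene was by far the more abundant per length in every library. Hspa8 sequence is shared at 95% identity or more over at least 200 bases with 8 other annotated genes, and its count is uncertain to that extent. By the same measure 13 genes of the set, Hspa8 included, share sequence with another annotated gene, and 20 do not. Outside Hspa1a and Hspa1b, the largest matches cover 71.1% of the Hspd1 transcript, 68.7% for Hsp90aa1 and 51.3% for Hspb1. Counts, ratios and ranks given for these genes are uncertain in the same way.

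Hspa4l, an Hsp110-family gene, had 18.5 and 15.5 CPM in Usp28 KO, against 11.1 and 13.9 CPM in control libraries. The groups did not overlap, and its log2 fold change was 0.45 ± 0.23 (edgeR, adjusted p = 0.502), or 0.61 with GC-content offsets. Hspa4, of the same family, averaged 546 ± 8.54 CPM in Usp28 KO and 631 ± 40.6 CPM in control libraries (SD, n = 2 each; log2 fold change -0.21 ± 0.17). Dnaja1, a J protein partner of Hspa8, had 200.1 and 153 CPM in Usp28 KO, against 239.6 and 196.7 CPM in control libraries, with overlapping groups (log2 fold change -0.31 ± 0.18, adjusted p = 0.577). Hspa14, Dnajb6 and St13 (the co-chaperone Hip) had log2 fold changes of 0.12, -0.11 and -0.054, each smaller than its standard error of 0.16, 0.15 and 0.17.

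The Hsp90 genes were the most abundant of the set by TPM. Hsp90ab1, the constitutive cytosolic Hsp90, had 6973 and 7304 CPM in Usp28 KO, against 7698 and 7223 CPM in control libraries (log2 fold change -0.064 ± 0.19, adjusted p = 0.941). By mean TPM it ranked 6th of all genes in Usp28 KO and 8th in control libraries. Hsp90aa1, the inducible form, had 4318 and 4205 CPM in Usp28 KO, against 4419 and 5082 CPM in control libraries, and ranked 15th in each group. Its groups did not overlap, and its log2 fold change was -0.16 ± 0.19 (edgeR, adjusted p = 0.813). The ratio of Hsp90ab1 to Hsp90aa1 in TPM was 2.12 and 2.28 in Usp28 KO, against 2.28 and 1.86 in control libraries.

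Co-chaperones of Hsp90 lay between -0.32 and 0.067 on the log2 scale. Chordc1, a zinc-binding co-chaperone, had 83.8 and 63.6 CPM in Usp28 KO, against 96.8 and 87.1 CPM in control libraries. Its groups did not overlap and its log2 fold change was -0.32 ± 0.18 (edgeR, adjusted p = 0.547), but -0.036 with GC-content offsets; its transcript is the poorest in GC of the set, at 35.7%. Stip1 (Hop), which bridges Hsp70 and Hsp90, varied more between replicates than between groups, with 466 and 655 CPM in Usp28 KO, against 517 and 665 CPM in control libraries (log2 fold change -0.076, or -0.13 with GC-content offsets). Log2 fold changes were -0.11 ± 0.15 for Ahsa1, which stimulates the Hsp90 ATPase, 0.067 ± 0.17 for the immunophilin gene Fkbp4 and 0.055 ± 0.19 for Ptges3, which encodes p23.

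The 8 CCT subunits assemble into 1 complex with each subunit once per ring. Their log2 fold changes ran from -0.15 to 0.23 with a median of -0.025, and the lowest adjusted p was 0.700, for Cct7 (edgeR). The 8 summed to 3777 and 3326 TPM in Usp28 KO, against 3534 and 3263 TPM in control libraries. Ordered by mean TPM, Cct2, Cct5, Cct8, Cct6a, Cct4 and Tcp1 came first to sixth in both groups, followed by Cct7 and Cct3, whose order was exchanged between the groups. The highest subunit exceeded the lowest by 3.32 and 3.19 times in Usp28 KO, against 3.11 and 3.49 times in control libraries. Library ranges of the neighbours Cct2 and Cct5, Cct8 and Cct6a, and Cct7 and Cct3 overlapped in both groups. Those of Cct6a and Cct4, and of Tcp1 and Cct7, overlapped in Usp28 KO only. TPM here uses the length of all annotated exons, which ran from 2557 bases for Cct2 to 6778 bases for Cct7, so a gene with long alternative exons is placed lower.

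Single subunits are best compared in CPM between the groups. Cct7 had 576 and 449 CPM in Usp28 KO, against 482 and 393 CPM in control libraries. Cct4 had 570.3 and 449.5 CPM in Usp28 KO, against 469.7 and 437.7 CPM in control libraries. In both, Usp28 KO replicate 1 was the highest library and the groups overlapped (log2 fold changes 0.23 ± 0.19 and 0.17 ± 0.18). Cct6a had 493 and 481 CPM in Usp28 KO, against 529 and 553 CPM in control libraries. Tcp1, which gives the complex its name, had 447 and 421 CPM in Usp28 KO, against 448 and 477 CPM in control libraries. Cct3 had 418.7 and 403.6 CPM in Usp28 KO, against 420.2 and 424.4 CPM in control libraries. In these last 3 genes both Usp28 KO libraries were below both controls, by log2 fold changes of only -0.15, -0.093 and -0.039, none larger than its standard error of 0.16; Tcp1 was at 0.02 with GC-content offsets and Cct3 at 0.02 with library totals. Cct5 had 535 and 559 CPM in Usp28 KO, against 534 and 526 CPM in control libraries. Cct2 had 558 and 478 CPM in Usp28 KO, against 525 and 518 CPM in control libraries. Cct8 had 518 and 416 CPM in Usp28 KO, against 504 and 468 CPM in control libraries. For Cct2 and Cct8 the controls lay within the range of Usp28 KO, and Cct5 differed by a log2 fold change of 0.045 ± 0.16.

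**Figure D5:**
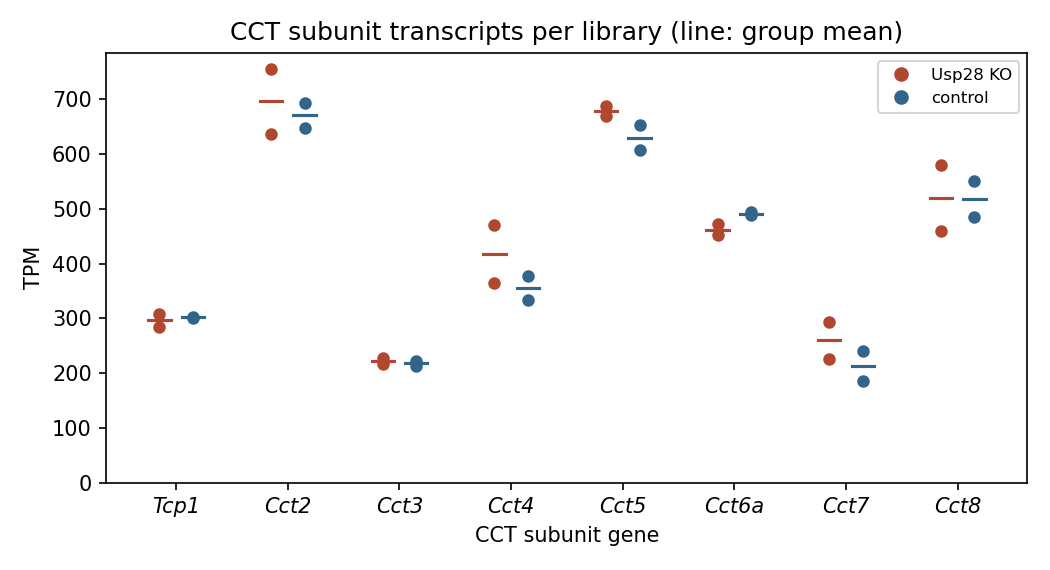
TPM of each CCT subunit gene per library (points) with the group mean (line), Usp28 KO left of control. Cct2 and Cct5 are the highest in both groups, with means of 696 and 679 TPM in Usp28 KO and 671 and 630.1 TPM in control, and Cct3 and Cct7 the lowest.

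Among the mitochondrial chaperones, Hspd1 and Hspe1 encode Hsp60 and its lid Hsp10, which work together in the matrix and are transcribed from opposite strands of one stretch of chromosome 1. Their outermost annotated starts, at 55088243 for Hspd1 and 55088132 for Hspe1, make their exons overlap by 112 bases. Hspd1 had 781 and 616 CPM in Usp28 KO, against 878 and 779.6 CPM in control libraries. Hspe1 had 186 and 159.9 CPM in Usp28 KO, against 194 and 158 CPM in control libraries. In both genes replicate 1 was the higher library of each group. The groups of each gene overlapped, with log2 fold changes of -0.25 ± 0.18 for Hspd1 (edgeR, adjusted p = 0.671) and -0.026 ± 0.17 for Hspe1. The Hspe1 to Hspd1 ratio in TPM was 0.427 and 0.465 in Usp28 KO, against 0.395 and 0.364 in control libraries. Hspa9 (mortalin), the mitochondrial Hsp70, averaged 795 ± 22.5 CPM in Usp28 KO and 759 ± 24.6 CPM in control libraries, with SD over n = 2 each. Trap1, the mitochondrial Hsp90, averaged 244 ± 5.68 CPM in Usp28 KO and 242 ± 10.01 CPM in control libraries. Their log2 fold changes were 0.067 ± 0.17 and 0.0076 ± 0.16.

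The wider chaperone network was read from 7 lists of other genes, 80 in all, of which 74 were tested. By edgeR 0 were called in either direction (adjusted p under 0.05), and the median log2 fold change of the 74 was -0.0036. At an unadjusted p under 0.05, 3 of the 74 were higher and 1 lower, against 6.86% and 4.34% of all tested genes. The heat shock factor gene Hsf4, best known from the eye lens, was the furthest from zero: it had 90 and 117 raw counts in Usp28 KO, against 23 and 37 in control libraries. This was 5.53 ± 1.01 CPM in Usp28 KO and 1.76 ± 0.817 CPM in control libraries (SD, n = 2 each), a log2 fold change of 1.67 ± 0.38 that did not pass edgeR (adjusted p = 0.118) and passed DESeq2 (adjusted p = 0.0373). It was 1.40 with GC-content offsets (edgeR, adjusted p = 0.338), and with no filter on low counts it was called (adjusted p = 0.00138). Left-out libraries moved it between 1.24 and 2.22, and edgeR called it at 2.22 when control replicate 2 was left out (adjusted p = 0.00246) and at 1.85 when Usp28 KO replicate 1 was (adjusted p = 0.00752).

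For small heat shock proteins and other heat shock factors, 9 of 13 genes were tested; the median log2 fold change was 0.36, and 0.26 with GC-content offsets. Hspb8, a partner of Bag3, had 86.03 and 102.6 CPM in Usp28 KO, against 70.4 and 77.4 CPM in control libraries, with groups that did not overlap (log2 fold change 0.35 ± 0.17, adjusted p = 0.460). Genes of prefoldin, which hands actin and tubulin to CCT, and of CCT cofactors had a median of -0.010 over 9 genes. Among them Txndc9 was at -0.35 ± 0.17 (-0.21 with GC-content offsets) and Pfdn2 at 0.23 ± 0.16. The medians were -0.013 over 14 other J proteins (Dnajc7 -0.28, Dnajb14 -0.27), -0.022 over 10 tested Hsp70 genes and cofactors of 12 (Hspa2 0.52, Hspa12a 0.38) and 0.011 over 11 Hsp90 cofactors (Cdc37l1 -0.33, Ppid -0.22, or -0.12 with GC-content offsets). Mitochondrial cofactors and proteases had a median of 0.083 over 9 genes, with the iron-sulfur co-chaperone gene Hscb at 0.53 ± 0.23 and the Lon protease gene Lonp1 at 0.27 ± 0.16, or 0.10 with GC-content offsets. Chaperones of the endoplasmic reticulum had a median of -0.088 over 12 genes, with the J protein gene Dnajb9 at -0.64 ± 0.24 and Sdf2l1 at 0.52 ± 0.21. With GC-content offsets Dnajb9 was at -0.50 and Sdf2l1 at 0.35. None of the genes named from these lists passed edgeR with all 4 libraries, the low-count filter and group as the only term.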

How the data were processed

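The authors deposited 1 table of raw read counts per gene for 4 libraries, with each gene's exon positions and length in the layout of featureCounts, per the file headers. Per the submitters' processing notes, the tools were HISAT2, featureCounts and DESeq2 (no versions) and the build was mm10. Annotation release, strand setting and the handling of multi-mapping reads: not given in the sources used here. Per the labels' protocols, 1 μg of RNA (RIN 6.5 or more) went into each TruSeq library after oligo(dT) selection. Of 55401 gene identifiers, 55141 matched GENCODE M21 without the version suffix. All 54349 that matched with it had the same start and end.

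Counts were fitted in R 4.3.3 with edgeR 4.0.16: filterByExpr (minimum count 10, minimum total 15) kept 15341 genes, TMM factors scaled the libraries, and the groups were compared by the robust quasi-likelihood test, adjusted by Benjamini-Hochberg over all tested genes (threshold 0.05). Errors after log2 fold changes are standard errors of that fit. CPM are counts per 1000000 of the scaled library; TPM were computed from the counts and the deposited exon length. Alternatives were DESeq2 1.42.0, limma-voom (limma 3.58.1), 2 other scalings, 2 other filters, a replicate block, GC-content offsets (natural spline with 5 degrees of freedom), both together, and leaving out each library. The fitting steps were tested on simulated counts. Depth limits the scarce genes: at these library sizes Hspa1a has 22 counts or fewer.

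The genes of the set, the lists and the tests were chosen with earlier results of these data known. Values in every library are given for Hsf1, Hspa1a, Hspa1b, Hspb1, Hspd1, Hspe1, Hspa8, both Hsp90 genes, the 8 CCT genes and the 8 genes of the set with the smallest p, and other lists are represented by their 2 genes with the smallest p. The summed Hspa1a and Hspa1b counts were added after seeing the data. Promoters are from RefSeq.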

Additional observations from a re-analysis of the deposited data

How the results depend on the processing

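The count of genes called among all tested was 0 by edgeR and by limma-voom, 140 by DESeq2, 29 with library totals, 322 with no filter and between 142 and 346 when a library was left out. For the set it was 0, with 1 (Hspa1a) without the filter and 0 to 1 with a library left out. Same-numbered libraries deviated together (r = 0.354 across genes), but the labels do not tie the numbers to a batch. With the replicate block edgeR called 1681 genes (11.0%), 2 of them in the set (Hspa1a and Hspa1b), and 2285 (14.9%) with GC-content offsets as well, 6 of them in the set (Bag3, Cct7, Hspa1a, Hspa4l, Hspb1 and Hspd1). Among other values, the block called the sum of Hspa1a and Hspa1b (adjusted p = 0.00194, and 0.0371 with GC-content offsets as well), Hsf4 (3.6e-07 and 0.00584), Hscb (0.0146 and 0.0121), Dnajb9 (0.00829 and 0.0266) and, without the offsets, Sdf2l1 (0.0145). Block and offsets together called Dnajc7 (0.0127) and Hspb8 (0.0424). With library totals the median of the set was 0.0088, beside 0.0572 for all genes, against -0.054 and -0.0040 with TMM.

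Signs turned for these genes. With library totals, which shift all genes together as given above, the log2 fold changes were 0.0202 for Hsf1, 0.0438 for Dnajb1, 0.0088 for St13, 0.0524 for Cct2, 0.0233 for Cct3, 0.00446 for Cct8 and 0.0341 for Hspe1. With GC-content offsets, without and with the replicate block, they were (the cause was not tested) 0.092 and 0.0847 for St13, -0.0797 and -0.0792 for Fkbp4, 0.0189 and 0.0195 for Tcp1, and -0.0575 and -0.0578 for Trap1. Cct2 was 0.0036 with the stricter filter of 50 counts in 2 libraries. With a library left out, the ranges were -0.279 to 0.163 for Hsf1, -0.658 to 0.177 for Hspb1, -0.114 to 0.0775 for Dnajb1, -0.165 to 0.056 for St13, -0.347 to 0.149 for Stip1, -0.0421 to 0.173 for Fkbp4, -0.227 to 0.285 for Ptges3, -0.128 to 0.0922 for Cct2, -0.0143 to 0.325 for Cct4, -0.226 to 0.0853 for Cct8, -0.173 to 0.125 for Hspe1 and -0.0435 to 0.0487 for Trap1. The other genes of the set, and those named from the other chaperone lists, kept their sign in all settings run; marker genes were not followed through them. Where a library is left out, the lone library of its group is assumed to vary like the other group's. Counts of 0 to 22 limit Hspa1a.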
